A study of Mus musculus with 6 samples.

Results

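The small RNAs described here are the 71 features that the deposited counts of muscle small RNA libraries annotate as PIWI-interacting RNAs (piRNAs). They are all the rows listed under the piRNA heading of the table that also holds 392 miRNA rows, out of 3034 features listed in the series. Each row is a piRNA number together with a genomic position, and the 71 rows carry 40 numbers. Of these numbers 30 have 1 row and 10 have more than 1 row, which makes 41 rows for the latter 10.

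The libraries were made from skeletal muscle, and the mice were C57BL6 males, 16 weeks old, kept on normal chow. In the 3 TAC mice the aorta had been narrowed by transverse aortic constriction, an operation that raises the pressure the left ventricle works against, so that it thickens and later fails, and the 3 Sham mice are the sham-operated controls. The sample records give a treatment time of 8 weeks for both groups, while the protocol gives a harvest 8 to 10 weeks after the operation. Which muscle was taken is not stated, and each library was made from 100 ng of total RNA with a QIAseq kit, which tags every molecule with a unique molecular identifier (UMI). Nothing in the labels describes how far heart failure had advanced in each mouse, or whether any RNA was pooled.

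In mice, piRNAs are small RNAs somewhat longer than miRNAs that guide PIWI proteins to silence transposons, and they are made above all in the germ line of the testis. They are cut from long single-stranded transcripts and do not need the enzyme Dicer, which cuts miRNAs out of hairpins. Databases of piRNAs were filled largely from small RNA reads of testis, so that a fragment of an abundant RNA of another class can carry a piRNA number.

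One number holds more rows than any other. mmu_piR_000691 has 19 rows of 26 bases, of which 18 lie on the minus strand of chromosome 8 within 84.9 kb and 1 on chromosome 11. The 18 starts were compared with the starts of 56 genes of a single annotated class on that strand in GENCODE M21. All 18 lie at one common, non-zero shift from starts of these genes, and the next most common shift fitted 4 of the 18. Genes of other classes were not searched. Read this way, the positions in the names are not those of the GRCm38 build, which the submitters' processing notes name. The positions given below are therefore those of the names, and no gene is read from them. Taken as GRCm38 positions, 18 of the 71 would overlap an annotated gene of the same strand and 0 of the 71 an annotated small RNA gene.

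By the positions in their names the rows were 21 to 32 bases long, with a median of 28 bases over the 40 numbers. These are lengths of the annotated entries, and the lengths of the reads counted under them were not measured here. Within the 26 to 32 bases usual for piRNAs lay 61 rows of 31 numbers, with 81.9% of the piRNA UMIs, and 10 rows of 9 numbers were 21 to 25 bases long, with 18.1%. Of 18 miRNAs of testis and germ cells, 16 were not listed in these libraries and 2 were, miR-34c-5p with 379 UMIs in all and miR-34b-5p with 20. Per 1000000 miRNA and piRNA UMIs the 2 together had 12.8, 101 and 9.57 in TAC 1, 2 and 3. In Sham 1, 2 and 3 they had 20.6, 18.6 and 6.77, so only TAC 2 lay above the Sham range. None of 20 genes of the piRNA pathway was among the 98 listed mRNA fragments, of which 96 carry a symbol. Among the 20 were Piwil1, Piwil2, Piwil4, Ddx4 and Mov10l1. So short a list cannot show whether these genes are expressed. All 7 miRNAs of a skeletal muscle list were listed, and their sum, mostly miR-1a-3p and miR-133a-3p, was 600846 to 615469 UMIs per 1000000 in TAC and 533040 to 614387 in Sham. Of the 7, miR-208b-3p had 0, 0 and 2 UMIs in TAC against 132, 28 and 87 in Sham, and miR-499-5p had 0, 0 and 15 UMIs in TAC against 145, 31 and 24 in Sham. For miR-206-3p the level was 1041 to 3251 UMIs per 1000000 in TAC against 4981 to 27719 in Sham. The part of these muscle miRNAs in the piRNA values was not tested. The name piRNA is used below as the annotation of the table.

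Depth limits these rows more than it limits the miRNAs. The libraries held 1695043 (Sham 3) to 5146811 (Sham 1) reads, and the 71 rows held 24801 UMIs over all 6 libraries. The UMI totals of single rows ran from 24 to 4840 with a median of 76, and 40 of the 71 rows had fewer than 100. The 5 largest rows held 50.3% of all piRNA UMIs. Every row reached 10 UMIs in some library, 2 rows stood at 0 in some library, and 0 rows stood at 0 throughout a group. Reads per UMI were 1.02, against 1.09 for the miRNA rows, and the listed rows held 90.0% to 93.0% of the reads that the authors' summary assigns to piRNAs. Over the 71 piRNA rows, chi-square per degree of freedom between libraries of a group ran from 2.73 (TAC 1 with TAC 2) to 15.8 (TAC 1 with TAC 3), so libraries of a group differed by more than counting noise. The liver miRNA miR-122-5p stood at 63.5 to 1892 UMIs per 1000000 in TAC against 3.38 to 17.3 in Sham. The 3 listed miRNAs of the epithelial miR-200 family stood at 1.31 to 6.25 in TAC against 22.8 to 68.5 in Sham. The part of either in the piRNA values was not tested.

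The piRNA rows as a class did not separate TAC from Sham. TAC 1, 2 and 3 held 5207, 3873 and 3306 piRNA UMIs, against 6562, 3287 and 2566 in Sham 1, 2 and 3. Per 1000000 miRNA and piRNA UMIs this came to 1808, 1802 and 1439 in TAC, against 1904, 1391 and 2171 in Sham. On this scale, which leaves out the TMM factors used for single rows below, the Sham values enclose all 3 TAC values. The means were 1683 ± 212 in TAC and 1822 ± 397 in Sham (SD, n = 3 each), a difference of -139 with a two-sided exact permutation p of 0.6, where 0.1 is the smallest value that 3 against 3 libraries can give. Without Sham 3, the shallowest library, the difference was 35.8. The TMM factors were 0.846 to 0.962 in TAC and 1.08 to 1.14 in Sham, so dividing by them raises TAC relative to Sham. The class difference was not computed on that scale, where its sign can differ. As a share of all reads, piRNAs made up 0.136% ± 0.0169 in TAC and 0.139% ± 0.0281 in Sham (SD, n = 3 each), with an exact permutation p of 1.0. Ribosomal RNA made up 0.808% ± 0.161 of the reads in TAC and 0.930% ± 0.157 in Sham (SD, n = 3 each; exact permutation p = 0.4). In bulk muscle, fewer cells that hold an RNA and less of it per cell cannot be told apart.

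**Figure D1:**
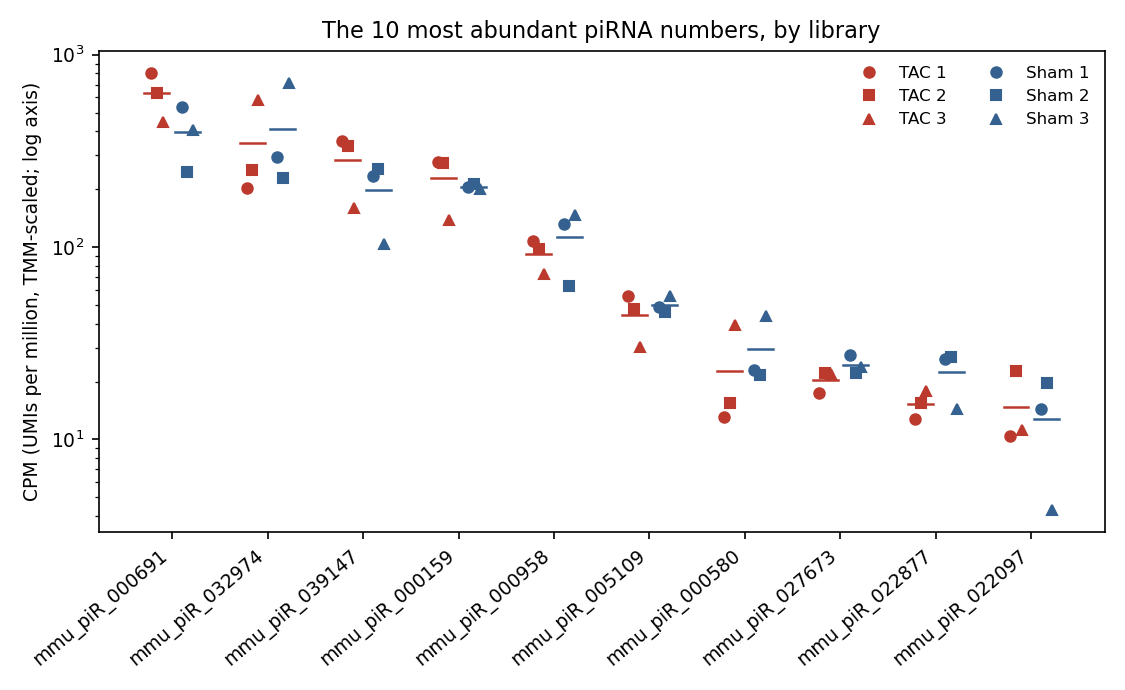
The 10 most abundant piRNA numbers, rows of one number summed, in CPM on a log axis; each symbol is a library (TAC left in red, Sham right in blue) and each bar a group mean of n = 3. For mmu_piR_000691 TAC runs from 445 to 807 CPM and Sham from 245 to 536 CPM, and for all 10 numbers the groups overlap.

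For single rows, counts were scaled to counts per 1000000 (CPM, UMIs per 1000000 miRNA and piRNA UMIs after TMM scaling) and tested with edgeR's quasi-likelihood test. Adjusted p-values are Benjamini-Hochberg values over all 362 tested rows, 322 miRNAs and 40 piRNA rows of 24 numbers, and the threshold was 0.05. A row had to pass a filter on low counts to be tested, and 31 of the 71 piRNA rows did not. Because the labels say only that the libraries are separate samples, the p-values measure the spread between these samples.

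Across the 40 tested piRNA rows little passed the test. A single row, mmu_piR_025576, fell in TAC and none rose, which is 2.5% of the tested piRNA rows. In the same fit 19.9% of all tested rows and 22% of the tested miRNAs passed, and of all tested rows 13.5% passed as lower and 6.35% as higher. At an unadjusted p under 0.05 the piRNA rows numbered 2, or 5%, against 29.6% of all tested rows. The groups did not overlap in 3 piRNA rows, or 7.5%, where 36.2% of all tested rows did not overlap. The standard errors (SE) of the log2 fold changes were wider, with a median of 0.41 for piRNA rows and 0.34 for miRNAs. Fold changes are TAC over Sham throughout, and those of the piRNA rows ran from -1.35 to 1.19 with a median of 0.30, beside 0.07 over all tested rows. Above 0 lay 23 piRNA rows and below 0 lay 17, while 52.8% of all tested rows lay above 0. This split turned round to 32 above and 39 below without the filter on low counts, to 10 and 19 with the rows of each number summed, and to 18 and 19 with piRNA rows fitted alone. Without TMM factors the median of all tested rows shifted by -0.30 on the log2 scale, and with upper-quartile factors it shifted by -0.13, while the piRNA rows above 0 then numbered 21 under either scaling.

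**Figure D2:**
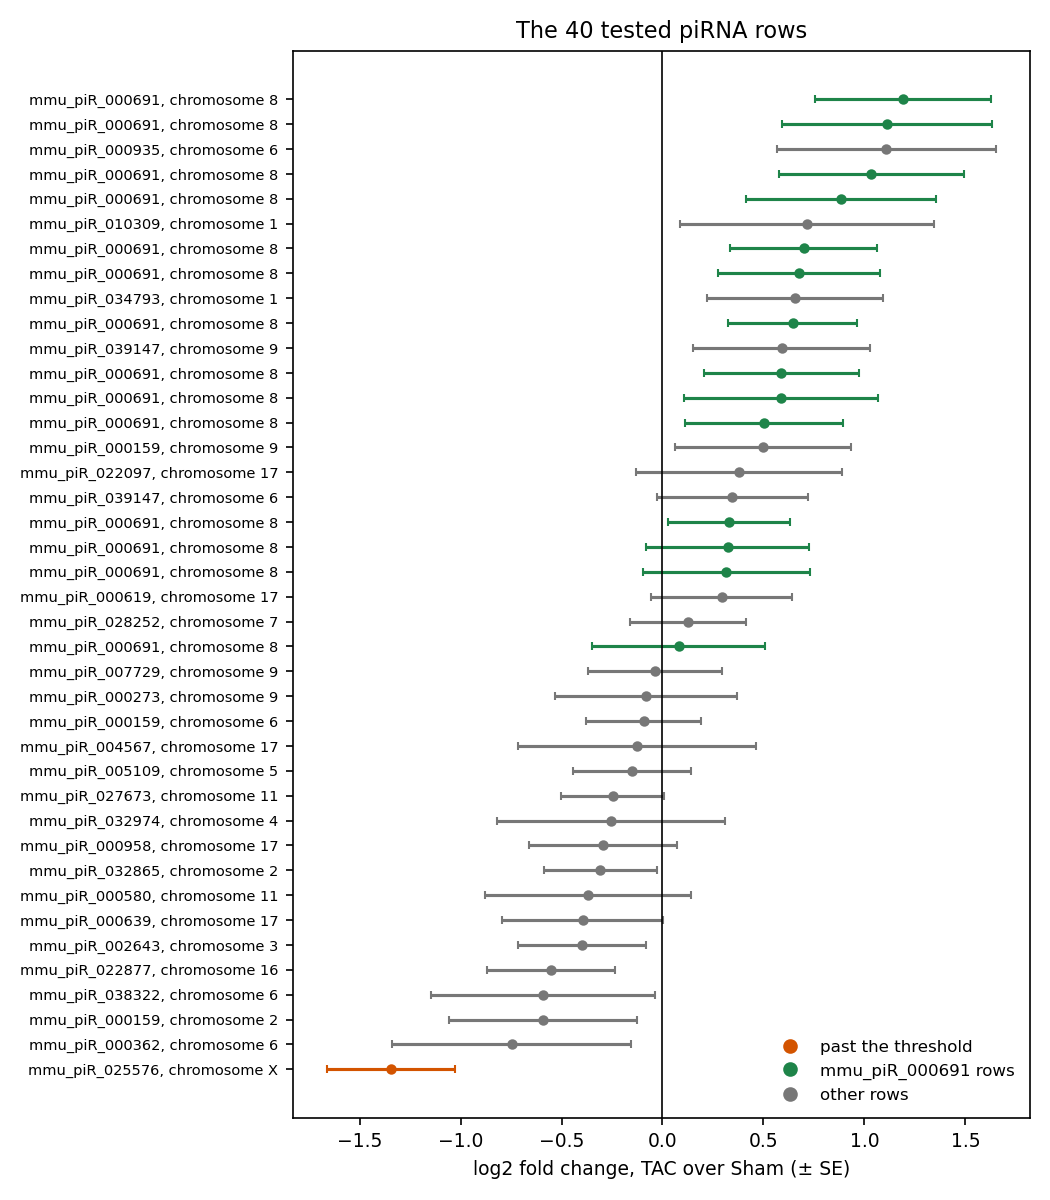
Log2 fold change of TAC over Sham for each of the 40 tested piRNA rows, with bars of 1 standard error; rows are sorted by fold change, and colours mark the 14 rows of mmu_piR_000691 and the single row past the threshold. The 14 rows of mmu_piR_000691 lie between 0.08 and 1.19 (13 of 14 above 0 with upper-quartile factors, with library sizes only, with piRNA rows fitted alone, without TAC 1 and without Sham 1, and 14 of 15 without TAC 2 and without Sham 2), and mmu_piR_025576 lies lowest at -1.35.

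The row that fell, mmu_piR_025576, is 22 bases long and lies on the minus strand of chromosome X, at 6405415 to 6405436 in its name. It had 5.01, 4.84 and 8.23 CPM in TAC 1, 2 and 3, against 17.2, 14.9 and 13.3 CPM in Sham 1, 2 and 3. All 3 TAC libraries lay below all 3 Sham libraries, and TAC 3 was the highest of the TAC libraries. The means were 6.03 ± 1.91 CPM in TAC and 15.2 ± 1.94 CPM in Sham (SD, n = 3 each), a log2 fold change of -1.35 ± 0.32 (SE) and an adjusted p of 0.0292. In molecules these are 13, 10 and 16 UMIs in TAC and 64, 39 and 18 UMIs in Sham. The direction held in each alternative run, with log2 fold changes from -1.74 to -1.17. The adjusted p ranged from 0.0065 to 0.143 and missed the threshold in 5 of the 18 alternatives. Those were without TAC 1 (0.137), without TAC 2 (0.143), without Sham 1 (0.0946), without Sham 2 (0.0993) and with the piRNA rows fitted on their own (-1.68, adjusted p = 0.134). Without TAC 1 or TAC 2 the test called 0 of the rows of either class. DESeq2 gave an adjusted p of 0.0273 and limma-voom 0.0248.

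A second row, mmu_piR_028975, starts 37 bases before it on the same strand and is also 22 bases long. It was too sparse for the test, with 2, 3 and 5 UMIs in TAC 1, 2 and 3, against 6, 13 and 5 UMIs in Sham 1, 2 and 3. In CPM these were 0.771, 1.45 and 2.57 in TAC, against 1.61, 4.97 and 3.71 in Sham, and the groups overlap at Sham 1. Stretches of 22 bases set 37 bases apart are also the layout of the mature arms of 4 RefSeq miRNA hairpins on the minus strand of chromosome X. These are Mir501, Mir463, Mir465b-2 and Mir374b, so the layout alone does not name the pair. By their RefSeq positions the lower arms start at 7241270, 66799236, 66835774 and 103573075, in that order. In its name mmu_piR_028975 starts at 6405378, nearest to Mir501, but by the reading above the names are not on GRCm38. Whether the pair belongs to any of these hairpins was not tested. Of the arms of these 4 hairpins, miR-374b-5p averaged 31.5 CPM in TAC and 21.8 CPM in Sham, for a log2 fold change of 0.52 and an adjusted p of 0.252. The arm miR-501-3p had 8.87, 16.9 and 54.5 CPM in TAC 1, 2 and 3, against 39.0, 37.5 and 169 CPM in Sham 1, 2 and 3. TAC 3 lay above Sham 1 and Sham 2, so the groups overlap. Its means were 26.8 CPM in TAC and 81.8 CPM in Sham, for a log2 fold change of -1.60 (SE 0.83) and an adjusted p of 0.232. The other arm of that hairpin, miR-501-5p, was at 2.10 CPM in TAC and 2.47 CPM in Sham and was not tested.

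**Figure D3:**
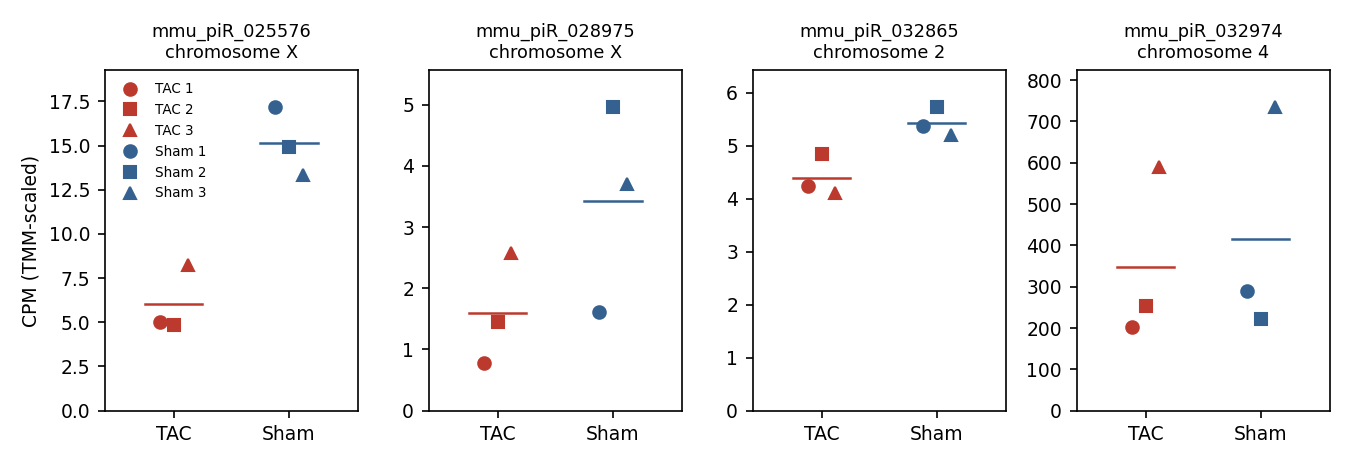
CPM of 4 piRNA rows by library, with TAC left and Sham right; symbols are libraries, bars are group means of n = 3, and every axis starts at 0. mmu_piR_025576 and mmu_piR_032865 separate the groups (4.84 to 8.23 against 13.3 to 17.2 CPM, and 4.11 to 4.84 against 5.19 to 5.73 CPM), whereas mmu_piR_032974 is highest in both libraries numbered 3 (589 and 736 CPM).

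Beside mmu_piR_025576 and a row of mmu_piR_000691 given below, the third tested row without overlap was mmu_piR_032865, of 23 bases on chromosome 2. It had 4.24, 4.84 and 4.11 CPM in TAC, against 5.37, 5.73 and 5.19 CPM in Sham. The step between the groups was small, with a log2 fold change of -0.31 ± 0.28 (SE) and an adjusted p of 0.531, and all counts lay between 7 and 20 UMIs.

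The number with the most UMIs was mmu_piR_000691, whose 19 rows held 7439 UMIs, 30.0% of all piRNA UMIs. Summed over its rows the number had 807, 634 and 445 CPM in TAC 1, 2 and 3, against 536, 245 and 405 CPM in Sham 1, 2 and 3. The highest Sham library lay above the lowest TAC library, so the groups overlap. The means were 629 ± 181 CPM in TAC and 395 ± 146 CPM in Sham (SD, n = 3 each), and the log2 fold change of 0.67 (SE 0.35) did not pass, with an adjusted p of 0.233 among 351 rows tested after summing.

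The 18 rows on chromosome 8 carry the same number, but their UMI totals differed 45.4-fold, from 29 to 1317. The 8 largest rows held 85.4% of the number's UMIs. The largest row, starting at 126484247, held 16.5%, 18.2% and 18% of the number in TAC 1, 2 and 3 and 18.4%, 16.2% and 19.9% in Sham 1, 2 and 3. How a read that fits many copies was assigned to one of them is not given in the sources used here, so the rows are not separate measurements. The 14 tested rows had log2 fold changes from 0.08 to 1.19, all 14 above 0, with a median of 0.62. Above 0 lay 13 of 14 with upper-quartile factors, with library sizes only, with piRNA rows fitted alone, without TAC 1 and without Sham 1, and 14 of 15 without TAC 2 and without Sham 2. Of the other 26 tested rows 9 lay above 0 and 17 below, with a median of -0.14. Without Sham 1 these other rows split into 14 above and 12 below, with a median of 0.015. With both libraries numbered 3 left out they split evenly, 15 and 15. In every other alternative more of them lay below 0 than above. Since all tested rows of mmu_piR_000691 carry one piRNA number, their count is not a count of independent RNAs.

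The largest fold change among them was that of the row starting at 126494409. It had 87.5, 56.6 and 30.9 CPM in TAC, against 35.5, 19.1 and 21.5 CPM in Sham. TAC 3 lay below Sham 1, and the log2 fold change of 1.19 (SE 0.44) had an adjusted p of 0.106. The row starting at 126502899 was the only tested piRNA row whose TAC libraries all lay above the Sham libraries, with 20.8, 12.1 and 14.4 CPM in TAC against 11.3, 3.44 and 8.16 CPM in Sham, for a log2 fold change of 1.03 ± 0.46 (SE) and an adjusted p of 0.175. The row starting at 126509726 had 20.8, 13.1 and 9.26 CPM in TAC against 11.0, 3.06 and 5.19 CPM in Sham, for a log2 fold change of 1.11 ± 0.52 (SE) and an adjusted p of 0.203. Without Sham 1 the log2 fold change of this row was 1.82 (adjusted p = 0.0865), and without TAC 1 it was 0.77 (adjusted p = 0.463). In each of these 3 rows TAC 1 was the highest library and Sham 1 the highest Sham library.

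The most abundant rows of the number had log2 fold changes near its median of 0.62, smaller than those of the 3 rows above. Less abundant rows lay on both sides of them, from 0.08 to 1.19. The row at 126484247 had 133, 116 and 80.7 CPM in TAC, against 97.6, 38.6 and 83.1 CPM in Sham, for a log2 fold change of 0.59 ± 0.38 (SE) and an adjusted p of 0.320. The rows starting at 126428267, 126457090, 126485950 and 126492702 had log2 fold changes of 0.70, 0.50, 0.64 and 0.67, with adjusted p-values of 0.235, 0.405, 0.217 and 0.272. The row on chromosome 11 was not tested, and had 13.1, 4.35 and 3.60 CPM in TAC against 5.37, 3.82 and 2.97 CPM in Sham.

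**Figure D4:**
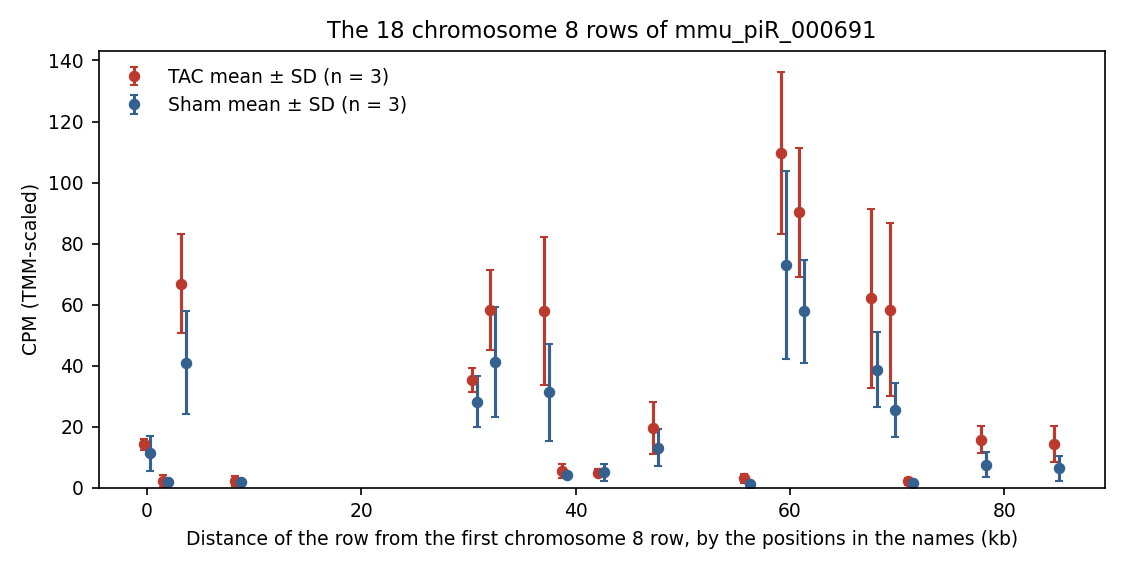
The 18 chromosome 8 rows of mmu_piR_000691 in CPM, as TAC and Sham means with SD bars (n = 3 each), against the distance in kb from the first row by the positions in the names. The rows have means from 2.15 to 109.8 CPM in TAC and from 1.16 to 73.1 CPM in Sham, and the SD bars of TAC and Sham overlap at all 18 rows.

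With the replicate number as a block, 6 piRNA rows passed in place of 1, where 32% of all tested rows passed in that fit and 15% of the piRNA rows. They were mmu_piR_025576 (log2 fold change -1.38, adjusted p = 0.0207), mmu_piR_039147 on chromosome 9 (0.62, adjusted p = 0.0367) and 4 rows of mmu_piR_000691. Those 4 start at 126494409 (1.17, adjusted p = 0.0192), 126502899 (1.11, adjusted p = 0.0340), 126509726 (1.23, adjusted p = 0.0328) and 126462165 (0.95, adjusted p = 0.0398). Leaving out both libraries numbered 3, an alternative chosen after seeing the data, gave 3 rows, 6.67% of the piRNA rows tested then, against 32.2% of all rows tested then. What the replicate numbers mark is not stated, and the pairing read from the data was not unique.

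The single most abundant row was mmu_piR_032974, of 28 bases on chromosome 4, with 19.5% of all piRNA UMIs. It had 202, 252 and 589 CPM in TAC 1, 2 and 3, against 290.2, 221 and 736 CPM in Sham 1, 2 and 3. The libraries numbered 3 were high in both groups, and the other 4 lay between 202 and 290.2 CPM. The means were 348 ± 210.4 CPM in TAC and 416 ± 279 CPM in Sham (SD, n = 3 each), with a log2 fold change of -0.25 ± 0.56 (SE) and an adjusted p of 0.768. Its sign turned without TAC 1, TAC 2 or Sham 3, at 0.10, 0.01 and 0.45. On the same scale mmu_piR_000580, of 30 bases on chromosome 11, had 39.6 and 45.2 CPM in TAC 3 and Sham 3 and 13.1 to 22.8 CPM in the other 4 libraries.

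The next 2 numbers share bases. mmu_piR_039147 is 21 bases long, the shortest length in the set, has 2 rows and held 14.4% of the UMIs. mmu_piR_000159 is 28 bases long, has 3 rows and held 12.6%. On chromosome 9 and on chromosome 6 the 2 overlap by 19 bases, so reads of one stretch can stand under either number. On chromosome 9, mmu_piR_039147 had 287, 277 and 129.6 CPM in TAC, against 177, 203 and 78.6 CPM in Sham, for a log2 fold change of 0.59 ± 0.44 (SE) and an adjusted p of 0.388. The longer mmu_piR_000159 there had 200.5, 185 and 81.3 CPM in TAC, against 134, 134 and 60.8 CPM in Sham, for a log2 fold change of 0.50 ± 0.44 (SE) and an adjusted p of 0.457. Both were lowest in the library numbered 3 of each group, and both overlap between groups. At each replicate number TAC lay above Sham in both rows, but what the numbers mark is not stated. How many of all tested rows show such an order was not counted, and these 2 rows share bases, so they are not separate evidence. With the replicate number as a block, mmu_piR_039147 passed (0.62, adjusted p = 0.0367) and mmu_piR_000159 did not (0.49, adjusted p = 0.0821). The ratio of the shorter to the longer row there was steady, at 1.43, 1.5 and 1.59 in TAC and 1.32, 1.52 and 1.29 in Sham.

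The copies elsewhere differed from this. On chromosome 6 the ratio of the shorter to the longer row was 1.75, 1.36 and 0.83 in TAC and 1.6, 1.10 and 0.50 in Sham, lowest in both libraries numbered 3. The row of mmu_piR_039147 there had 69.0, 60.5 and 30.9 CPM in TAC against 53.5, 42.8 and 28.9 CPM in Sham, for a log2 fold change of 0.35 and an adjusted p of 0.540. On chromosome 2 mmu_piR_000159 had 37.8, 43.5 and 21.6 CPM in TAC, against 36.3, 32.5 and 89.0 CPM in Sham, where Sham 3 stood far above the rest, for a log2 fold change of -0.59 ± 0.46 (SE) and an adjusted p of 0.408. Without Sham 3 it was -0.013 (adjusted p = 0.974). The ratio of its chromosome 9 row to its chromosome 2 row was 5.31, 4.24 and 3.76 in TAC and 3.70, 4.12 and 0.68 in Sham. With the rows of each number summed, mmu_piR_039147 had a log2 fold change of 0.52 (adjusted p = 0.429) and mmu_piR_000159 one of 0.15 (adjusted p = 0.755).

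A second stretch dense in rows lay on chromosome 17, where 9 rows of 9 numbers fell within 5.20 kb, from 39451051 to 39456254 in the names. They held 8.19% of the piRNA UMIs. Together they had 131, 126 and 90.5 UMIs per 1000000 in TAC, against 202, 104 and 199 in Sham. On this scale, which carries no TMM factors, Sham 2 was within the TAC range and the other Sham libraries above it. The order of the libraries can differ in CPM, the scale of the row given next. Most of these UMIs were those of mmu_piR_000958, of 27 bases, with 107, 97.7 and 73.0 CPM in TAC against 130.1, 61.1 and 151 CPM in Sham, for a log2 fold change of -0.29 ± 0.37 (SE) and an adjusted p of 0.596.

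Of the remaining rows with small p-values, none passed. mmu_piR_000935, of 30 bases on chromosome 6, had 3.08, 8.22 and 13.4 CPM in TAC, against 2.96, 4.59 and 3.71 CPM in Sham. TAC 1 lay among the Sham libraries, and the log2 fold change was 1.11 (SE 0.54, adjusted p = 0.217). It was 0.52 (adjusted p = 0.527) without TAC 3 and 1.56 (adjusted p = 0.0809) without TAC 1. mmu_piR_022877, of 29 bases on chromosome 16, had 12.7, 15.5 and 18 CPM in TAC, against 25.8, 26 and 14.8 CPM in Sham, for a log2 fold change of -0.55 ± 0.32 (SE) and an adjusted p of 0.259. Sham 3 lay inside the TAC range, and without both libraries numbered 3 the log2 fold change was -0.92 (adjusted p = 0.0327). In mmu_piR_000362, of 30 bases on chromosome 6, TAC was even at 6.17, 5.80 and 5.66 CPM, while Sham ran over 17.5, 8.03 and 2.22 CPM, for a log2 fold change of -0.75 ± 0.59 (SE) and an adjusted p of 0.410. This row shares 29 bases with mmu_piR_038322, and without Sham 1 its log2 fold change was 0.04. mmu_piR_002643, of 28 bases on chromosome 3, had 11.6, 10.2 and 8.74 CPM in TAC against 17.2, 9.55 and 13.3 CPM in Sham, for a log2 fold change of -0.40 and an adjusted p of 0.410.

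The other 7 numbers with several rows were sparse, and for their rows summed none passed. mmu_piR_000216 and mmu_piR_038323 had the lowest log2 fold changes, -0.69 (SE 0.53, adjusted p = 0.397) and -0.73 (SE 0.50, adjusted p = 0.349). In mmu_piR_038323 Sham 1 stood apart, with 15.5 CPM against 3.57 to 6.75 CPM in TAC and 7.10 and 4.32 CPM in the other Sham libraries. The log2 fold changes were -0.37 for mmu_piR_000414, -0.41 for mmu_piR_000622, -0.23 for mmu_piR_007729, 0.17 for mmu_piR_017289 and 0.15 for mmu_piR_022097. Their summed levels averaged 5.49 to 14.8 CPM in TAC and 5.17 to 12.8 CPM in Sham.

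Neither length class separated the groups. The 61 rows of 26 to 32 bases summed to 1443, 1422 and 1246 UMIs per 1000000 in TAC, against 1580 (Sham 1), 1043 (Sham 2) and 1965 (Sham 3). The 10 rows of 21 to 25 bases summed to 365, 380 and 193 in TAC, against 324, 347 and 206 in Sham, lowest in both libraries numbered 3. Of the 8 tested short rows 4 had log2 fold changes above 0 and 4 below, with a median of 0.02. Of the 32 tested long rows 19 lay above 0 and 13 below, with a median of 0.32, and 14 of these 32 are the rows of mmu_piR_000691.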

How the data were processed

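Small RNA libraries of 3 TAC and 3 Sham muscles were compared. The deposited tables give counts for every library in UMIs and in reads, not normalized, per the file headers. The build named in the submitters' processing notes is GRCm38. Which aligner, piRNA database and counting rules were used is not given in the sources used here. The numbers in the column names put all TAC before all Sham libraries; what they mark is not stated, and whatever follows them and the group difference cannot be told apart. UMI counts of miRNA and piRNA rows were fitted together with edgeR 4.0.16 in R 4.3.3 (TMM factors, filterByExpr with minimum count 10 and minimum total 15, two-sided quasi-likelihood test of TAC against Sham, threshold 0.05), and each SE was computed from the fold change and the F value of its test. DESeq2 1.42.0 and limma-voom 3.58.1 were alternatives, with other scalings, reads, no filter and left-out libraries. Levels of the class were compared without TMM factors, with exact permutation tests in scipy 1.17.1.

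Rows named were the 10 most abundant, those past the threshold, the 5 with the smallest p in each direction, those whose groups did not overlap, and numbers with more than 1 row. Members and lists were chosen with earlier results of these data known. A planned grouping by annotated gene could not be applied, since the positions in the names are not on GRCm38, and the sequences of the rows are not reported here. The labels number replicates 1 to 3 in both groups without saying what a number marks. Deviations from group means correlated between same-numbered libraries with r = 0.37, 0.29 and 0.56 over the tested rows, which are not independent replicates, so by a criterion of r above 0.1 the numbers were read as pairs. TAC 2 with Sham 1 reached 0.33 and TAC 1 with Sham 2 reached 0.27, so the criterion did not single out same-numbered libraries. Over the tested piRNA rows alone, same-numbered libraries gave r = 0.49, 0.40 and 0.39. There TAC 2 with Sham 1 gave 0.15, still above the criterion, and TAC 1 with Sham 2 gave -0.27. The main fit was unpaired, and the block was an alternative.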

Additional observations from a re-analysis of the deposited data

How the results depend on the processing

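Against 1 piRNA row past the threshold, the count was 0 with piRNA rows fitted alone (5 at an unadjusted p under 0.05), 6 with the replicate block, 3 with both libraries numbered 3 left out (chosen after seeing the data, 6.67% of 45 tested rows against 32.2% of all), and 0 to 2 when 1 library was left out: 0 without TAC 1, TAC 2, Sham 1 or Sham 2, and 2 without TAC 3. Other scalings, reads, DESeq2, limma-voom, no filter, a threshold of 0.1 and summed numbers gave 1. The median log2 fold change, 0.30, was 0.023 with library sizes only, -0.030 with piRNA rows alone, -0.12 without the filter (which adds the 31 untested rows) and 0.027 to 0.42 with 1 library left out. The class difference of -139 UMIs per 1000000 ran from -354 to 35.8 with 1 library left out and was 158 without both numbered 3. All these class values are without TMM factors, and the difference was not computed with them. Of 347 alternatives over the 20 named rows, 328 kept their direction and side of the threshold, 5 lost the call, 7 gained one and 7 reversed. The reversals were mmu_piR_039147 on chromosome 6 (-0.064, piRNA rows alone), mmu_piR_000159 on chromosome 2 (0.19) and mmu_piR_000958 (0.053), both without the libraries numbered 3, mmu_piR_032974 (-0.89 to 0.45 with 1 library left out) and mmu_piR_000362 (-1.13 to 0.038 likewise). The causes of these changes were not tested. The replicate block added 5 calls and changed no other. Totals under 100 UMIs in 40 rows limit what these data can resolve.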
